A study of Saccharomyces cerevisiae with 10 samples.

Results

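The haploid yeast deletion pool was exposed to a high dose of hydrogen peroxide with or without a mild dose beforehand, and the abundance of every strain was compared between the adapted and the acute pool. These are the 6 arrays of 10 in the study that hybridised an adapted pool against an acute pool, chosen by their labels and not by their values, and all 4611 measured deletion strains are included. For each array, 1 aliquot of the pool was grown in rich medium and divided in 2. To obtain the adapted pool, cells were given 0.1 mM H2O2 for 45 min, while their counterparts for the acute pool were sham treated. Both were then challenged with 0.4 mM H2O2 for 1 h and regrown for 5 h in fresh medium. In every strain a single gene is replaced by a cassette with a pair of molecular barcodes (tags), and the tags amplified from genomic DNA were labelled with Cy5 for the adapted and Cy3 for the acute pool. A log ratio above 0 therefore stands for a strain that made up more of the adapted pool than of the acute pool, and a log ratio below 0 for a strain that made up less of it. The array reads shares of a pool after regrowth, so survival of the dose and the speed of regrowth cannot be told apart.

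Peroxide at a mild dose induces the enzymes that degrade it, largely through the transcription factors Yap1 and Skn7 and the general stress factors Msn2 and Msn4. Yeast given a mild dose survives a later dose that would otherwise kill much of the culture. The study cites earlier work in which Msn2 and Msn4 were not needed for this adaptation. A strain that lacks a gene needed for the induced protection gains less from the mild dose than the rest of the pool does. A strain that the high dose alone damages, but that can still be protected, gains more in principle. The comparison asks which deletions shift a strain in either direction when the high dose itself is the same in both pools.

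The arrays were noisy. The tags of a strain correlated across strains with r between 0.0567 and 0.164 on single arrays, as a description over strains and not over replicates, and the median SD of a strain between the 6 arrays was 0.229. In addition, 385 of the 4611 first tags (8.35%) moved together from array to array, with a median log ratio of −1.99 on replicate 2 and 1.42 on replicate 4. The 375 of these strains with a second tag had second-tag medians of 0.0128 and 0.00658 on the same arrays. Strains with such a first tag vary widely between arrays and are hard to call, and 0 of the strains past the test below are among them. With these first tags left out, a setting added after seeing the data, 94 strains were lower and 66 higher in place of the 70 and 58 given below. All arrays carried the adapted pool in Cy5, so that dye and pretreatment cannot be told apart. The labels and Methods describe a separate aliquot and culture for each array, and the test takes the arrays as independent. Their log ratios were not equally alike, however. As a description over strains with tags averaged, replicates 1 and 2 correlated with r = 0.60, and each of them with replicates 4 and 5 at r from −0.28 to −0.21. For replicates 1 and 2, r was 0.38 over first tags without the block and 0.36 over second tags. Over second tags, replicates 1 and 2 correlated with replicate 4 at r of 0.18 and 0.30, and with replicate 5 at −0.031 and −0.0089. Over first tags without the block the same pairs had r from −0.30 to −0.11. The labels give no batch that explains this, and its part in the p-values was not tested.

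**Figure D1:**
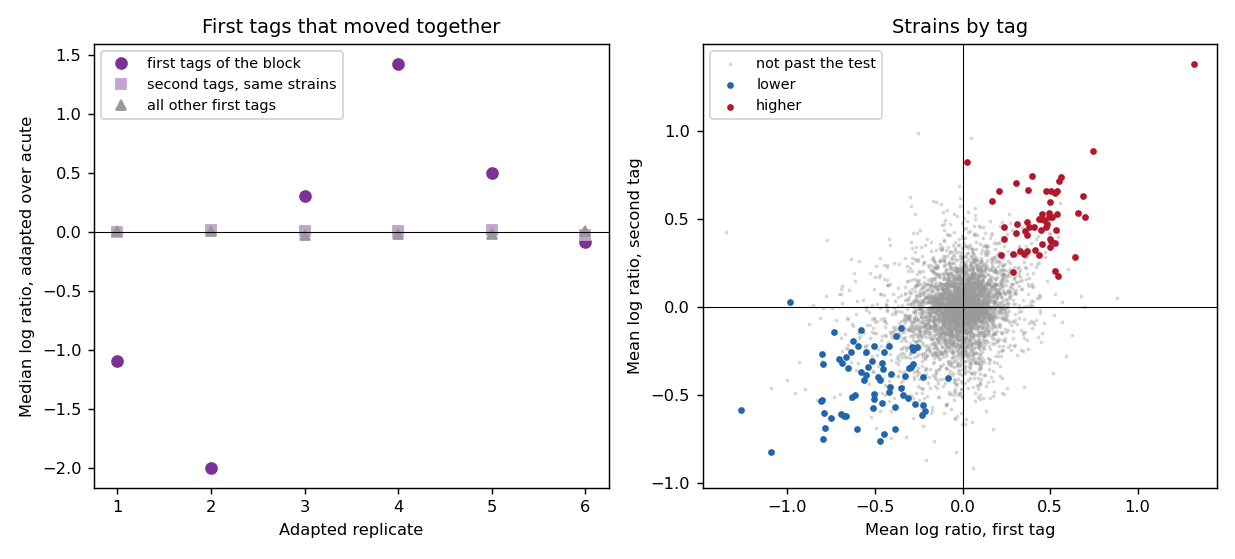
Left, the median log ratio (adapted over acute, vertical axis) on each of the 6 adapted replicates of the 385 first tags that moved together, of the second tags of the same strains and of all other first tags. Right, each point is a strain with both tags, with its mean over 6 arrays by the first tag (horizontal) and the second tag (vertical). The block ran from −1.99 to 1.42 while the second tags of its strains stayed near 0. Both tags lie on the side of the strain in 67 of 68 lower and 55 of 55 higher strains, which were called on the average of the tags.

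At an unadjusted p of 0.005 (limma, mean of 6 arrays against 0, two-sided), 70 strains were lower in the adapted pool (1.52% of 4611 strains) and 58 were higher (1.26%). Log ratios of the lower strains ran from −0.92 to −0.24 with a median of −0.44, and those of the higher strains from 0.23 to 1.34 with a median of 0.43. Of the lower strains, 60 were below 0 on all 6 arrays, and of the higher strains 55 were above 0 on all 6, against 3.93% and 3.43% of all strains. Both tags lay on the side of the strain in 67 of 68 lower and 55 of 55 higher strains measured by both. A low p of the averaged tags over the 6 arrays itself favours strains with 1 sign throughout, so these counts describe the called strains and are no separate support for them. After Benjamini-Hochberg adjustment over all strains, limma left 0 lower strains and 1 higher strain below an adjusted p of 0.05, while 294 lower and 206 higher strains had an unadjusted p under 0.05. The adjusted p of every called strain but yjr124cΔ was 0.0761 or above, so the strains below are described by the unadjusted threshold. Without replicate 5 the counts were 35 lower and 43 higher, and without replicate 6 they were 37 and 40.

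**Figure D2:**
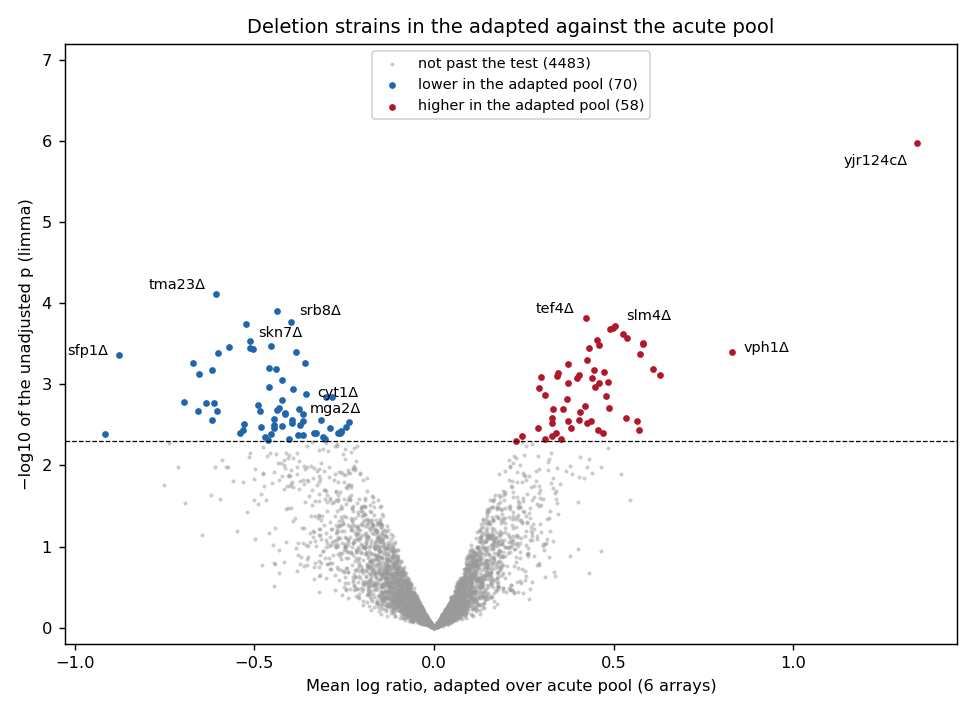
Mean log ratio of each of the 4611 strains over 6 arrays (horizontal axis) against −log10 of its unadjusted limma p (vertical axis). The dashed line marks the threshold, 70 strains lie past it below 0 and 58 above 0, and yjr124cΔ stands apart at 1.34.

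The strain with the largest gain from pretreatment lacked YJR124C, a gene of unknown function. Its log ratios on replicates 1 to 6 were 0.90, 1.20, 1.63, 1.27, 1.47 and 1.59. It was the highest of all strains in mean, at 1.34 ± 0.10 (moderated SE, n = 6 arrays, as for all means below; limma adjusted p = 0.00488). Every array was far above 0, both tags gave similar levels, 1.32 by the first and 1.38 by the second, and the lowest array lay above the mean of every other strain. Without replicate 5 or 6 its limma adjusted p was 0.0596 or 0.0574, and without each of the other replicates it was 0.0345 or below. In 4 other cultures, in which an acute pool was compared with an untreated pool, the same strain had a mean of −1.56.

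**Figure D3:**
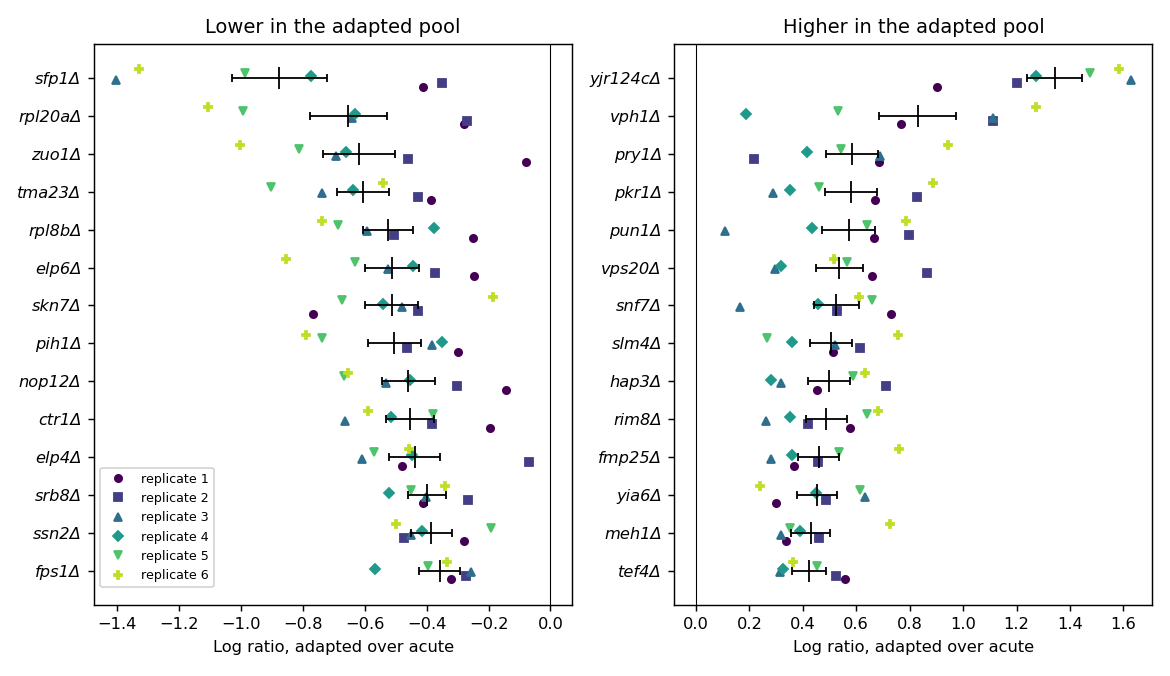
Log ratios (adapted over acute, horizontal axis) on each of the 6 arrays for the 14 lower (left) and 14 higher (right) strains with the lowest p among those with the same sign on every array. Symbols are replicates, vertical ticks are means and bars are moderated standard errors. All 6 symbols of each strain lie on the same side of 0, from sfp1Δ at −0.88 to yjr124cΔ at 1.34.

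Of the 9 strains of the Rim101 pathway, 4 were higher in the adapted pool by the test (44.4%, against 1.26% of all strains). In this pathway membrane sensors of external pH and lipid asymmetry recruit Rim8 and Rim20, and the protease Rim13 then cleaves the transcription factor Rim101 into its active form. The means of 8 strains were above 0, against 2100 of all 4611 strains, and the 4 past the test were rim8Δ (0.49 ± 0.077), rim20Δ (0.47 ± 0.089), rim101Δ (0.46 ± 0.091) and rim13Δ (0.46 ± 0.11). The median of the list was 0.26, against −0.01 over all strains, and its median was above 0 on each of the 6 arrays, between 0.13 and 0.58. For rim8Δ, which lacks the arrestin-like adaptor, the 6 arrays read 0.58, 0.42, 0.26, 0.35, 0.64 and 0.68. For rim101Δ they read 0.53, 0.25, 0.33, 0.34, 0.88 and 0.42, again above 0 throughout. The sensor strains rim21Δ (0.25 ± 0.079), rim9Δ (0.13 ± 0.11) and dfg16Δ (0.00469 ± 0.087) were not past the test, nor was nrg1Δ (−0.11 ± 0.058), which lacks a repressor that Rim101 itself shuts off. With the second tags alone 1 of the 9 strains was past the threshold, rim8Δ. With the first tags alone 4 were past it, but not the same 4: rim8Δ, rim20Δ, rim101Δ and rim21Δ, while rim13Δ was not.

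Processing of Rim101 takes place on endosomal ESCRT complexes, which otherwise sort ubiquitinated membrane proteins into the lumen of the endosome. The ESCRT list divided into strains well above 0 and strains near it. Past the test were 5 of 20, all higher: vps36Δ (0.63 ± 0.12) and vps25Δ (0.48 ± 0.10) of ESCRT-II, stp22Δ (0.61 ± 0.11) of ESCRT-I, and vps20Δ (0.54 ± 0.088) and snf7Δ (0.52 ± 0.084) of ESCRT-III. The arrays of snf7Δ, which lacks the filament subunit that also binds Rim20, read 0.73, 0.53, 0.17, 0.46, 0.66 and 0.61. Those of vps20Δ, its nucleator, read 0.66, 0.87, 0.29, 0.32, 0.57 and 0.52. Both strains were above 0 on all 6 arrays, lowest on replicate 3. The other core subunits of ESCRT-III and the disassembly factor were closer to 0 and not past the test, with did4Δ at 0.032 ± 0.059, vps24Δ at −0.12 ± 0.095 and vps4Δ at −0.10 ± 0.087. Nor were snf8Δ of ESCRT-II (0.068 ± 0.069) and vps28Δ of ESCRT-I (0.084 ± 0.069). The whole list had a median of 0.06, and its share of higher strains was 25%, against 1.26% of all strains. Of the 5 called strains, stp22Δ and snf7Δ were past the threshold with the first tags alone. With the second tags alone all but vps36Δ were. For vps25Δ, replicate 2 was at −0.028, and its mean was 0.31 by the first tag and 0.71 by the second.

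Other higher strains lacked proteins of the vacuolar membrane or an assembly factor of its proton pump. VPH1 encodes the vacuolar isoform of the large membrane subunit of the V-ATPase, the proton pump that acidifies the vacuole, and vph1Δ had the second highest mean of all strains. Its arrays read 0.77, 1.11, 1.11, 0.19, 0.53 and 1.27, giving 0.83 ± 0.14, and all lay above 0 although replicate 4 was low. The strain pkr1Δ, without an assembly factor of the same pump, was at 0.58 ± 0.097. Among 20 V-ATPase strains these 2 were past the test (10%, against 1.26% higher of all strains), 13 were above 0 and the median was 0.05. Of the others, vma3Δ had a mean of 0.44 ± 0.14 with replicate 6 at 1.18 and was not past the test, and stv1Δ, without the Golgi isoform of Vph1, was at −0.18 ± 0.11. Set beside these after their values were seen, with no list behind them, were slm4Δ at 0.50 ± 0.078 with arrays of 0.51, 0.62, 0.52, 0.36, 0.26 and 0.76, and meh1Δ at 0.43 ± 0.073, which lack subunits of the EGO complex at the vacuole. The strains gtr1Δ and gtr2Δ, without its GTPase partners, were at 0.031 ± 0.071 and 0.12 ± 0.072 and not past the test.

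Among mitochondrial lists, that of fatty acid and lipoate synthesis had the highest median. Mitochondria make their own fatty acids, chiefly to build lipoic acid, the cofactor of pyruvate dehydrogenase and the glycine cleavage system. Of 11 strains in this list 9 were above 0 and 4 were past the test, all higher (36.4%, against 1.26% of all strains). They were cem1Δ (the condensing enzyme, 0.48 ± 0.096), mct1Δ (the malonyl transferase, 0.43 ± 0.10), hfa1Δ (the mitochondrial acetyl-CoA carboxylase, 0.40 ± 0.095) and gcv3Δ (the lipoylated H protein, 0.29 ± 0.059). Arrays of cem1Δ read 0.73, 0.44, 0.20, 0.28, 0.43 and 0.82, and those of gcv3Δ, measured by the first tag only, read 0.26, 0.30, 0.27, 0.17, 0.40 and 0.35. Both were above 0 on every array, and the spread of gcv3Δ was the smaller of the pair. The list median was 0.29, and the array medians ran from 0.03 on replicate 3 to 0.44 on replicate 2. The strain lpd1Δ, without the lipoamide dehydrogenase that works on the same cofactor, was at 0.33 ± 0.076, and oar1Δ, without the reductase of the pathway, was at 0.42 ± 0.13 and not past the test. The count of 4 fell to 2 without replicate 1, 2 or 6, to 2 with the spread of each strain taken alone and to 1 with the first tags alone. With the second tags alone it was 3, but only cem1Δ and hfa1Δ of the 4 named strains were among them.

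Further higher mitochondrial strains were hap3Δ, without a subunit of the CCAAT-binding activator of respiratory genes, with arrays of 0.45, 0.71, 0.32, 0.28, 0.59 and 0.63 and a mean of 0.50 ± 0.078, yia6Δ without a NAD+ carrier (0.45 ± 0.075), mrs4Δ without an iron carrier (0.34 ± 0.065) and fmp25Δ (0.46 ± 0.077). Of the mitochondrial ribosome strains, 0 of 39 of the large and 0 of 28 of the small subunit were past the test in either direction. Their medians were −0.02 and −0.00253 (limma, 3 and 0 at an unadjusted p under 0.05). By that looser limma threshold 294 of all 4611 strains were lower and 206 higher. Past the test, 1.52% of all strains were lower and 1.26% higher, and at these shares such lists would hold few called strains or none. In the cytochrome bc1 complex of the respiratory chain, cyt1Δ (cytochrome c1, −0.36 ± 0.074) and rip1Δ (the Rieske protein, −0.26 ± 0.065) were the 2 of 8 strains past the test, both lower, while qcr6Δ was at 0.40 ± 0.13 and not past it. The first tag of qcr6Δ is among those that moved together, and with such tags left out its mean was 0.37 and past the threshold, which gave 2 lower strains and 1 higher in the complex. The 2 lower strains were 25% of the list, against 1.52% of all strains. With either tag set alone 0 of the 8 strains were past the threshold. Arrays of cyt1Δ read −0.18, −0.24, −0.25, −0.42, −0.49 and −0.57, all below 0. The call of rip1Δ was kept only without replicate 4 when arrays were left out, and that of cyt1Δ was lost without replicate 5.

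**Figure D4:**
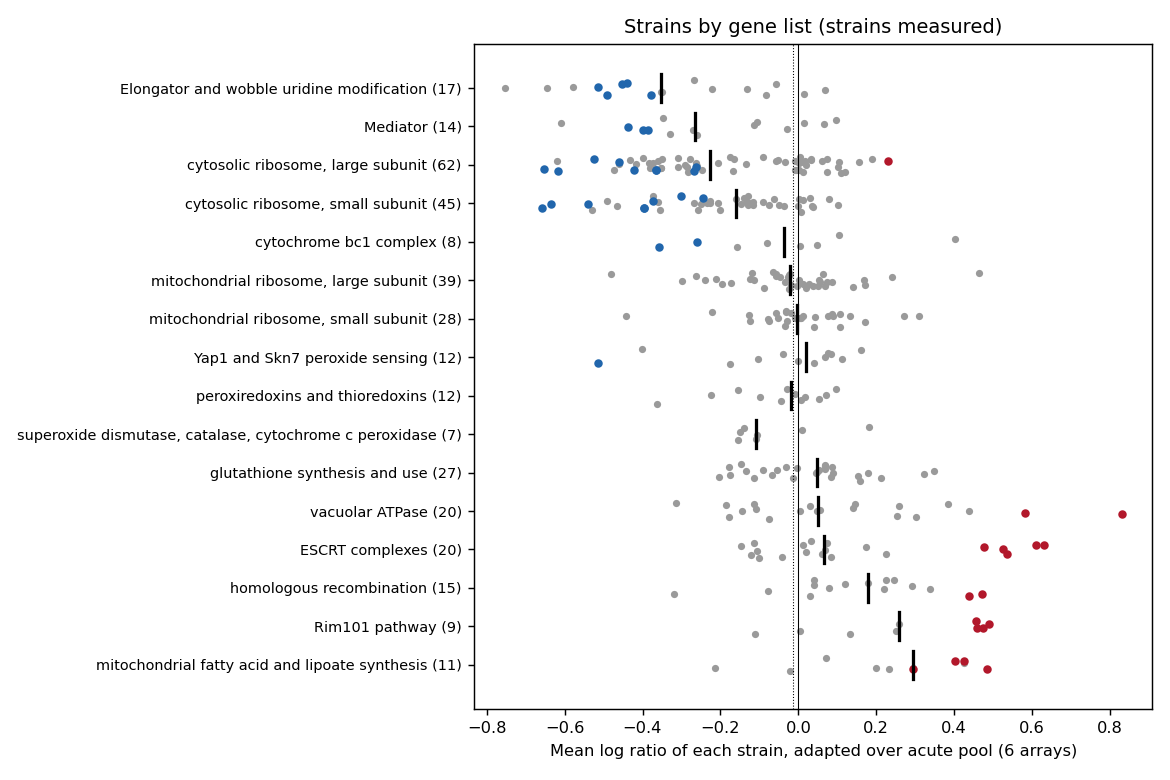
Mean log ratio over 6 arrays (horizontal axis) of every measured strain in 16 of the 56 gene lists, with the number of strains in brackets. Blue and red points are lower and higher strains past the test, grey points are the others, thick ticks are list medians and the dotted line is the median of all strains. Medians run from −0.35 for the Elongator list to 0.29 for mitochondrial fatty acid and lipoate synthesis, and both mitochondrial ribosome lists lie near 0.

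Among DNA repair strains, those of homologous recombination were mostly above 0. Of 15 strains for homologous recombination, which rejoins broken DNA by copying an intact sequence, 13 were above 0 and the median was 0.18. Past the test were rad55Δ (a recombination protein, 0.47 ± 0.12) and rad59Δ (a strand-annealing protein, 0.44 ± 0.10), and rad52Δ was at 0.34 ± 0.12. The 2 past the test were 13.3% of the list, against 1.26% higher of all strains, and 2100 of all 4611 strains were above 0. Neither call was kept without replicate 3, 4 or 5. A firmer call was rad5Δ, without the ligase and helicase of error-free lesion bypass, at 0.45 ± 0.083 with arrays of 0.075, 0.57, 0.56, 0.46, 0.61 and 0.40, low only on replicate 1. The strain tel1Δ, without a checkpoint kinase, was at 0.33 ± 0.079 and lost its call without replicate 2, 3, 5 or 6. Of 10 base excision repair strains 8 were above 0, with apn2Δ (an AP endonuclease) at 0.21 ± 0.063, and 0 were past the test (limma, 3 at an unadjusted p under 0.05, all higher). By that looser limma threshold 206 of all 4611 strains were higher.

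Several other higher strains with a low p are given singly. They were tef4Δ, without a subunit of an elongation factor complex of cytosolic translation (0.42 ± 0.064), pry1Δ, without a secreted sterol-binding protein (0.58 ± 0.097), and pun1Δ, without a plasma membrane protein of cell wall maintenance (0.57 ± 0.10). Next to them were whi2Δ, without a stress response regulator (0.40 ± 0.077), hsp12Δ, without a small heat shock protein of membranes (0.45 ± 0.091), and erg2Δ, without the sterol isomerase (0.40 ± 0.077). Of 23 strains in the list of general stress signalling, whi2Δ and hsp12Δ were the 2 higher (8.70%, against 1.26% of all strains). In that list 1 was lower (4.35%, against 1.52%) and the median was 0.017. All 6 of the higher strains given singly here had the same sign on all 6 arrays.

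Among the lower strains, skn7Δ stands in the known peroxide pathway. Its arrays read −0.77, −0.43, −0.48, −0.54, −0.67 and −0.18, all below 0, with a mean of −0.51 ± 0.085 (limma unadjusted p = 0.000292), and the call was kept without any single replicate. On the 4 acute over untreated arrays the same strain was at −1.49, so it was low in both comparisons. The strain yap1Δ, measured by the first tag only, read −0.71, −0.55, −0.81, −0.31, −0.18 and 0.15. Its mean was −0.40 ± 0.13, with 5 of 6 arrays below 0, and it was not past the test (limma unadjusted p = 0.0135); its acute mean was −1.64. Of 12 strains in the list of peroxide sensing, skn7Δ alone was past the test (8.33%, against 1.52% lower of all strains) and 6 were below 0. The strain mga2Δ, without a membrane-anchored activator of fatty acid desaturation, read −0.14, −0.17, −0.50, −0.30, −0.52 and −0.63. All its arrays were below 0, its mean was −0.38 ± 0.084, and its call was lost without replicate 3, 5 or 6.

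Strains without the enzymes that degrade peroxide or supply their reducing power did not pass the test. There were 0 past it among 7 of superoxide dismutases, catalases and cytochrome c peroxidase, 12 of peroxiredoxins and thioredoxins, 27 of glutathione metabolism and 19 of the pentose phosphate pathway (limma, with 1, 1, 3 and 4 at an unadjusted p under 0.05). By that looser limma threshold 294 of all 4611 strains were lower and 206 higher. At the shares of all strains past the test, 1.52% lower and 1.26% higher, lists of this size would hold few called strains or none. The catalase strains were at 0.18 ± 0.065 for ctt1Δ (cytosolic) and −0.11 ± 0.12 for cta1Δ (peroxisomal). The superoxide dismutase strains sod1Δ and sod2Δ were at −0.14 ± 0.16 and −0.15 ± 0.089, with arrays of sod1Δ from −0.69 to 0.68. The peroxiredoxin strain tsa1Δ, measured by the first tag only, read −0.37, −0.086, −0.49, −0.57, −0.71 and 0.054 (−0.36 ± 0.11, limma unadjusted p = 0.01), with 5 arrays below 0 and 1 just above. The peroxide sensor and peroxidase strain hyr1Δ was at −0.17 ± 0.10, the glutathione reductase strain glr1Δ at 0.045 ± 0.085, and zwf1Δ, without the first enzyme of the pentose phosphate pathway, at −0.29 ± 0.11 with replicate 5 at −0.86. The regulator strains msn4Δ and rox1Δ were at −0.043 ± 0.060 and 0.099 ± 0.076, and msn2Δ was not measured here. Standard errors of these strains ran up to 0.16, and a p that misses the threshold does not show that a strain was unshifted.

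The broadest set of lower strains lacked proteins of the cytosolic ribosome. Of 62 strains of the large subunit 43 were below 0 with a median of −0.23, 9 were lower and 1 (rpl41bΔ, 0.23 ± 0.060) was higher past the test, a call that was lost without any 1 of the arrays. Of 45 strains of the small subunit 37 were below 0 with a median of −0.16, 8 were lower and 0 higher. The lower strains were 14.5% of the large and 17.8% of the small subunit list, against 1.52% of all strains. The median of either list was below 0 on each of the 6 arrays. Arrays of rpl20aΔ read −0.28, −0.27, −0.64, −0.63, −0.99 and −1.11, with the most negative values on replicates 5 and 6. Those of rpl8bΔ read −0.25, −0.50, −0.59, −0.38, −0.69 and −0.74, and those of rps18bΔ, measured by the first tag only, −0.23, −0.24, −0.24, −0.49, −0.25 and −0.35. All 3 strains were below 0 throughout, and rps24aΔ had the lowest mean of the ribosomal strains at −0.66 ± 0.15. Most of these proteins are encoded by a pair of genes, and the strain of the other copy, rps24bΔ, was at −0.15 ± 0.13 (the difference between the copies was not tested). The lower counts depended on single arrays. For the large subunit they were 6 without replicate 2, 5 without replicate 4 and 3 without replicate 5 or 6, and for the small subunit 4, 3, 4, 1 and 3 without replicates 2 to 6.

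Other lower strains with a low p were placed together here after their values were seen, and no list of ribosome assembly was counted. The strain tma23Δ, without a nucleolar protein of ribosome synthesis, had the lowest p of all lower strains, with arrays of −0.39, −0.43, −0.74, −0.64, −0.90 and −0.54 and a mean of −0.61 ± 0.083 (limma unadjusted p = 7.73e-05). The strain sfp1Δ, without an activator of ribosomal protein genes, had a lower mean but a wider spread, with arrays of −0.41, −0.35, −1.41, −0.77, −0.99 and −1.33 and a mean of −0.88 ± 0.15. Both were below 0 on every array. The strain nop12Δ, without a factor of ribosomal RNA maturation, was at −0.46 ± 0.085, pih1Δ, without a factor that assembles small nucleolar RNPs, at −0.50 ± 0.086, and zuo1Δ, without a chaperone bound to the ribosome, at −0.62 ± 0.12. Also past the test, and outside the rule for named strains, were hmo1Δ (−0.70 ± 0.15) and rpa49Δ (−0.48 ± 0.12), which affect transcription of ribosomal DNA, and ltv1Δ (−0.61 ± 0.14), which affects the assembly of small subunits. The lowest mean of all was that of ygr272cΔ (−0.92 ± 0.23), named here only by its systematic name. Its arrays read −0.13, −0.90, −2.20, −0.47, −0.87 and −0.92, with replicate 3 far below the others. By the first tag its mean was −1.26 and by the second −0.59.

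The most negative list median belonged to Elongator and its partners, at −0.35. Elongator and the Urm1 pathway modify the wobble uridine of certain tRNAs, which helps the ribosome read their codons. Of 17 strains 15 were below 0 and 5 were past the test, all lower: elp6Δ (−0.51 ± 0.087), kti12Δ (−0.49 ± 0.11), uba4Δ (−0.45 ± 0.11), elp4Δ (−0.44 ± 0.082) and elp2Δ (−0.38 ± 0.096). Arrays of elp6Δ, which lacks a subunit of the accessory ring, read −0.25, −0.37, −0.53, −0.45, −0.63 and −0.86. Those of elp4Δ, which lacks another subunit of that ring, read −0.48, −0.070, −0.61, −0.45, −0.57 and −0.46, below 0 throughout with replicate 2 close to 0. Strains of the same steps that were not past the test included elp3Δ, without the catalytic subunit (−0.35 ± 0.11), trm9Δ, without a methyltransferase of the same base (−0.64 ± 0.31), and ncs6Δ, without a thiolation enzyme (−0.58 ± 0.17). The 5 lower strains were 29.4% of the list, against 1.52% of all strains. The count of 5 fell to 3 without replicate 1 or 5 and to 2 without replicate 3, 4 or 6, and the median of the list was below 0 on all 6 arrays.

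Mediator, which links activators to RNA polymerase II, gave 11 of 14 strains below 0, a median of −0.27 and 3 lower strains (21.4%, against 1.52% of all strains). Of these, srb8Δ and ssn2Δ lack subunits of the detachable kinase module. Arrays of srb8Δ read −0.41, −0.27, −0.40, −0.52, −0.45 and −0.34 and those of ssn2Δ −0.28, −0.47, −0.45, −0.42, −0.19 and −0.50, with means of −0.40 ± 0.061 and −0.39 ± 0.067. These 2 strains had small spreads and kept their calls without any single replicate. The kinase strain ssn3Δ (−0.26 ± 0.12) and the cyclin strain ssn8Δ (−0.35 ± 0.18) were not past the test. The third lower strain, gal11Δ of the tail module (−0.44 ± 0.098), kept its call only without replicate 2. The remaining lower strains with the lowest p were ctr1Δ, without the high-affinity copper transporter, with arrays of −0.20, −0.38, −0.66, −0.51, −0.38 and −0.59 (−0.45 ± 0.077), and fps1Δ, without the glycerol channel of the plasma membrane, with arrays of −0.32, −0.27, −0.26, −0.57, −0.40 and −0.34 (−0.36 ± 0.065). Both were below 0 on all 6 arrays.

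The acute over untreated arrays, from 4 separate cultures, were set beside these values because the acute protocol is the denominator here and the numerator there. By the same threshold 2.67% of all strains were lower and 0.933% higher on them. Of the 58 strains higher in the adapted pool, 58 had an acute mean below 0, with a median of −0.47, and 26 were past the test as acute lower, whereas 54.8% of all strains had an acute mean below 0. Of the 70 strains lower in the adapted pool, 62 had an acute mean above 0, with a median of 0.40, and 13 were past the test as acute higher. The overall direction of the ratios was chosen by the order of the study's p-values, which compare both sets of arrays. On which side of 0 the called strains lie in the acute comparison depends on that choice, so these counts are no separate result. The ribosomal, Mediator and Elongator lists had acute medians of 0.21 (large subunit), 0.23 (small subunit), 0.33 and 0.35. The Rim101 and lipoate lists had acute medians of −0.50 and −0.35. The mitochondrial ribosome lists, near 0 here, had acute medians of −0.36 and −0.48. The other 8 lower strains had an acute mean below 0: skn7Δ (−1.49), cyt1Δ (−0.56), mga2Δ (−0.16), rps17aΔ (−0.14), vms1Δ (−0.13), rip1Δ (−0.098), poc4Δ (−0.088) and rpl17bΔ (−0.036). Of these only skn7Δ was past the test on the acute arrays (limma unadjusted p = 6.88e-05).

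**Figure D5:**
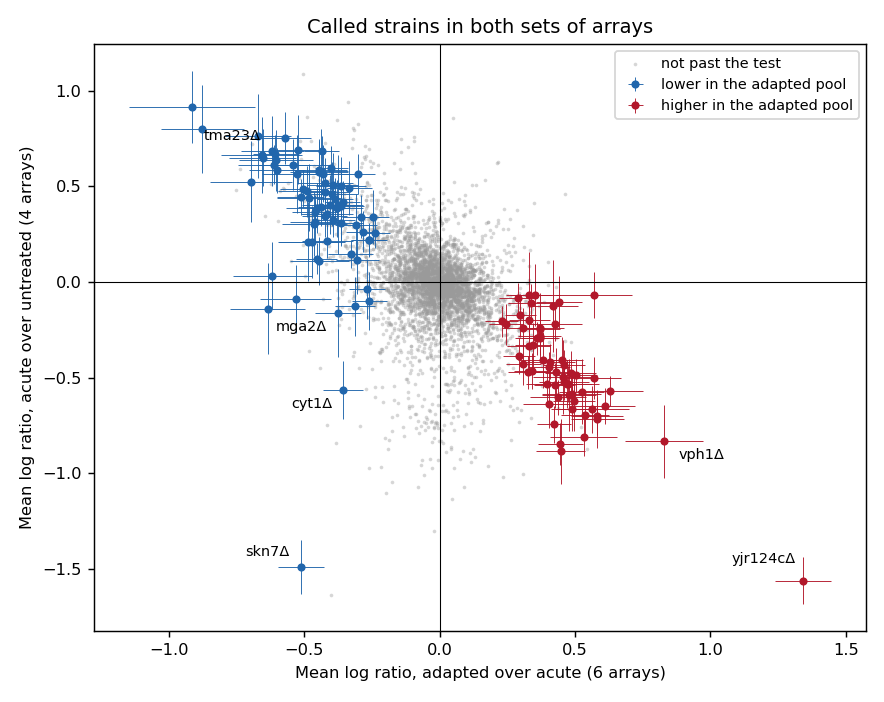
Mean log ratio of each strain on the 6 adapted over acute arrays (horizontal axis) and on the 4 acute over untreated arrays (vertical axis), with moderated standard errors for the strains past the test. All 58 higher strains lie below 0 on the vertical axis and 62 of 70 lower strains lie above it, with skn7Δ at −0.51 and −1.49 as the lowest of the other 8. The side taken on the vertical axis depends on the direction chosen for the ratios.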

How the data were processed

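Genomic DNA of a pool of haploid deletion strains was measured on 2-colour barcode arrays, with 6 arrays of adapted (Cy5) over acute (Cy3) pools, and 4 arrays of acute over untreated pools only set beside them. Each deposited value is the log ratio of a spot, taken here as a natural log, which the authors had corrected by the median of the array and by loess. No source used here gives the base of the logarithm. With another base every log ratio and SE would be scaled by a constant and every p would stay. Intensities of the spots were not used here, so their signal over background is not known.

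Of 22575 spots, 16850 had a value on all arrays. Among replicate spots of the first tag set, 3510 (up to main spot 5375) equalled their main spot with the sign reversed and 350 (from 5409) the same sign, to within 1e-09, and 3760 of the second tag set were equal. Signs of all spots with an id above 5400 were therefore turned. The overall direction was chosen so that the order of strains follows that of the p-values the study lists, and this is no separate check of it. The 20 measured main spots between these ids have a sign set by the boundary alone, and none of their strains was past the test. Of these strains tum1Δ, hnt3Δ and 1 strain of the large subunit of the cytosolic ribosome are in the lists. Tags were averaged per strain and array, giving 4611 strains, 4147 with a gene by the platform annotation (4145 in RefSeq) and 4478 with both tags, and the arrays were quantile normalized. Strain means were tested against 0 with limma 3.58.1 (lmFit, eBayes) in R 4.3.3, two-sided, at an unadjusted p of 0.005 and a Benjamini-Hochberg adjusted p of 0.05. The Methods give that unadjusted threshold, but their adaptive test compares the log ratios of both sets of arrays by a regularised t-test. The strains called here are therefore not the study's adaptive calls. The fit was tested on simulated data. Python 3.11.15 (numpy 2.4.6, pandas 2.3.3, matplotlib 3.10.9) was used for tables and plots.

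Named strains were the 14 with the lowest p in each direction with the same sign on 6 arrays, up to 3 per list and direction past the test and at most 1 member per list that was not, and 14 genes of peroxide defence and regulation (YAP1, SKN7, MGA2, ROX1, MSN2, MSN4, HYR1, TSA1, CTT1, CTA1, SOD1, SOD2, GLR1 and ZWF1); other strains are named to account for a list. The strains and the 56 gene lists (1177 genes measured, 42 in over 1 list) were chosen with earlier results of these data known. Alternatives were median centring, each tag set alone, both tags required, the spread of each strain alone or shared by all, array weights, leaving out each array and, added later, leaving out the first tags that moved together. Expression arrays and growth assays of the study were not analysed here.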

Additional observations from a re-analysis of the deposited data

Results flagged for a closer look

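Among the 127 named strains, 5 had 1 array whose distance from the nearest other array was large for the range of the 6, by Dixon's test at its 95% critical value. Chance alone flags about 1 in 20 groups of this size, so 5 of 127 is within what it gives. In elp4Δ replicate 2 was at −0.0701, and in gpb2Δ, which lacks a regulator of protein kinase A and was not past the test, replicate 4 was at −0.12. In meh1Δ replicate 6 was at 0.73, and in pde2Δ, which lacks a cyclic AMP phosphodiesterase, replicate 1 was at 0.71. In zwf1Δ replicate 5 was at −0.86. Without that array elp4Δ and meh1Δ kept their calls, and pde2Δ lost its call.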

How the results depend on the processing

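The number of lower strains was 32 with the first tags alone, 44 with the spread of each strain taken alone, 135 with a spread shared by all strains and 0 at an adjusted p of 0.05, against 70. The number of higher strains was 33 with the first tags alone and 1 at an adjusted p of 0.05, against 58. Leaving out 1 array gave 35 to 64 lower and 40 to 49 higher strains. The counts under median centring, the second tags alone, both tags required and array weights were within 1.5 times of these. The strains called differed more than the counts. Of the 70 lower and 58 higher strains, 27 and 29 were also called with the second tags alone. With the first tags alone 20 and 27 were shared, and with the spread of each strain alone 30 and 36. Leaving out 1 array shared 26 to 48 lower and 36 to 44 higher strains. Leaving out the first tags that moved together, a setting chosen after seeing the data, gave 94 lower and 66 higher strains, 68 and 58 of them shared with the counts above, and 19 and 19 at a limma adjusted p of 0.05. For yjr124cΔ the adjusted p over all alternatives ran from 2.95e-21 with the shared spread to 0.127 with its own spread, both by t-tests without limma. No named strain changed sign past the test. Of 64 named strains past the test, 39 kept their call without any single array. No paired analysis was possible because only 1 group of arrays enters the test, and the portions of a culture are already paired within each array. The cause of these shifts was not tested. Signal over background is unknown, 6 arrays limit the precision, and no array had the dyes exchanged.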

Other observations

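Of the 56 gene lists, 24 held no strain past the test in either direction. Among the others, several smaller lists had 1 strain past it, where 1.52% of all strains were lower and 1.26% higher. In nucleotide excision repair this was rad2Δ, without the incision nuclease, with arrays of −0.24, −0.31, −0.57, −0.76, −0.51 and −0.10, all below 0, and a mean of −0.42 ± 0.095. In SAGA, a histone-acetylating coactivator, it was ngg1Δ (−0.44 ± 0.11), and in ATP synthase inh1Δ, without the inhibitor of the enzyme's reverse reaction (−0.49 ± 0.11), where replicate 6 was at 0.011. Of 29 proteasome strains 1 was lower and 1 higher (3.45% each, against 1.52% and 1.26% of all strains), poc4Δ at −0.53 ± 0.13 and nas2Δ at 0.38 ± 0.093, each lacking an assembly chaperone. In the HOG list, which covers the osmotic stress response, ste11Δ, without a kinase of the cascade, was at 0.29 ± 0.071 beside fps1Δ at −0.36 ± 0.065. Calls of rad2Δ, ngg1Δ, inh1Δ, poc4Δ, nas2Δ and ste11Δ were each lost without at least 4 of the 6 single arrays, and values of these strains are given with no explanation.

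No gene was given in the platform annotation for 464 strains. Of these, 8 were among the lower and 5 among the higher strains past the test, where 1.52% of all strains were lower and 1.26% higher. The strains without a gene are known here only by position.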
